A study of Homo sapiens with 9 samples.

Results

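The DNA replication and E2F genes described here are 30 genes, taken by symbol from the 23369 genes of the deposited expression table. They code for the 6 subunits of the MCM helicase, 8 factors that load or switch on that helicase, 5 polymerase, clamp and clamp loader subunits, 3 enzymes of nucleotide supply, 4 proteins of chromatin assembly and the fork checkpoint, and 2 E-type cyclins with 2 E2F transcription factors. RNA was sequenced from NCI-H1155 cells, which the labels call H1155, a line from a human lung cancer of neuroendocrine type, in 3 groups of 3 libraries. The first group received foretinib at 1 µM for 4 h (libraries 1, 2 and 4 in the titles), the second cabozantinib at 1 µM for 4 h (libraries 3, 4 and 5), and the remaining group was DMSO, the solvent control (libraries 2, 4 and 5). All cells were grown in RPMI-1640 with 10% serum, and the treated cells received their compound 24 h after plating. The time in DMSO is not given separately. The 3 groups share the line and its genotype, and no result reaches beyond this 1 line. The libraries of a group are labelled as biological triplicates, and no label ties a number in 1 group to the same number in another.

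Foretinib and cabozantinib are inhibitors of several tyrosine kinases, MET and KDR among them. The molecules differ in the quinoline substituent, which is methoxy in cabozantinib and morpholinopropoxy in foretinib, and in a fluorine that the central phenyl ring of foretinib has and that of cabozantinib lacks. The series asks how inhibitors of such similar structure come to differ in anticancer activity. This was the 1 pair of compounds compared, at the same dose and time.

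In dividing cells the genes of DNA replication are switched on together shortly before S phase. E2F factors, released when cyclin-dependent kinases inactivate the retinoblastoma protein, bind short GC-rich motifs in their promoters, and E2F1, E2F2 and the E-type cyclins are themselves such targets and feed the switch. Before S phase CDC6 and CDT1 load the MCM helicase onto DNA, and CDC45 and the GINS complex later turn it into the active helicase. RNA of these genes is widely used as a sign of how much a cell population proliferates, and neuroendocrine lung cancers are known for inactivating the retinoblastoma protein often.

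A RefSeq promoter of build GRCh38.p14, from 250 bases before the annotated start to 50 after it, was at hand for 26 of the 30 genes, and 5 of these have more than 1 annotated start, which makes 34 windows. MCM4, MCM5, GINS4 and CCNE2 had no entry in the table. Of the 26 genes, 18 (69.2%) held in some window 1 or more of 4 E2F motifs on either strand, TTTCCCGC, TTTGGCGC, TTTCGCGC or TTTGCCGC, against 6.83% of the 8953 tested genes in the promoter table and 3.99% of all 27305 genes there. Counted by window, 19 of the 34 (55.9%) held a motif, against 4.91% of the windows of tested genes and 3.32% of all 35116 windows. TTTCCCGC stood in 10 of the 26 genes (38.5%, against 3.40% of tested genes) and TTTGGCGC in 7 (26.9%, against 1.45%). TTTCGCGC stood in 5 (19.2%, against 1.11%), and TTTGCCGC in E2F1 alone (3.85%, against 1.17%). The motifs can overlap, since TTTGGCGC read on one strand can share bases with TTTCGCGC on the other. The motif nearest the start lay a median of 17 bases from it in the 18 genes, with a range of 2 to 137, against a median of 95 bases in the 611 tested genes that hold one. The CCAAT box CCAAT, another common promoter element, was found in 16 of the 26 (61.5%, against 43.7% of tested genes). The cell cycle element in its forms TTTGAA and TTTAAA was found in 1 (3.85%, against 13.4%) and 3 (11.5%, against 10.4%) of the 26. No E2F motif of these letters was in any window of RRM1, RRM2, RFC4, MCM10, CHAF1A, CHAF1B, CCNE1 or CDC45. A match is a run of letters and not a measured binding site.

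Stretches of 4 of these promoters are shown because their genes carry the comparisons below: POLA1 had the smallest p of the 30 genes, PCNA the highest level, MCM6 the same 12 bases at 2 places, and E2F1 codes for a factor that binds such motifs. Each reads 5′ to 3′ on the strand of the gene, with the E2F motif in capitals, and ends before the annotated start.
POLA1, chrX:24693741-24693828, plus strand: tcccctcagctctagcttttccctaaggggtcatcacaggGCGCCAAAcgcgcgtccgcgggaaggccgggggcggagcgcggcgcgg
PCNA, chr20:5126634-5126721, minus strand: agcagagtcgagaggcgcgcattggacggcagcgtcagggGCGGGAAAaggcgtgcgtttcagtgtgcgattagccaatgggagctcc
MCM6, chr2:135876482-135876635, minus strand: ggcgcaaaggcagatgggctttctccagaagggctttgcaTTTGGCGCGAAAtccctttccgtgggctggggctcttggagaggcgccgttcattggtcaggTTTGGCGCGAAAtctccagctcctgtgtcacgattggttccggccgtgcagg
E2F1, chr20:33686386-33686458, minus strand: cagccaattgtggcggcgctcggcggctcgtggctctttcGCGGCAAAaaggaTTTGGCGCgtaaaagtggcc
The capitals of POLA1 lie 137 bases before the start and those of PCNA 59. In MCM6 the 12-base run TTTGGCGCGAAA, in which 2 of the motifs overlap on opposite strands, begins 152 and 90 bases before the start, 62 bases apart. In E2F1 the motif runs begin 33 and 20 bases before the start.

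Values are normalised read counts, that is, reads of a gene divided by 1 size factor per library, and ± gives the SD of 3 libraries. Recovered totals were 26996023 to 34062153 reads in foretinib, 27264766 to 27522332 in cabozantinib and 27257862 to 32986439 in DMSO libraries. Foretinib libraries detected fewer genes than the others: 18.5% ± 2.38 of the 12642 tested genes were at 0 in foretinib, 5.01% ± 0.544 in cabozantinib and 7.25% ± 3.14 in DMSO libraries. The highest DMSO share was 10.9%, in DMSO 2, and the lowest foretinib share 16.3%. All 9 neuroendocrine markers were tested, with summed levels of 69735 to 73359 in foretinib, 67381 to 72874 in cabozantinib and 58887 to 62733 in DMSO libraries. Epithelial markers, of which KRT19 was at 0 and the other 4 were tested, summed to 2603 to 5109 in foretinib, 4271 to 6674 in cabozantinib and 3962 to 6554 in DMSO libraries. Of 5 leukocyte markers 4 were at 0 in every library, PTPRC, CD3E and CD14 among them, and the list summed to at most 9.04 in foretinib, 61.6 in cabozantinib and 71.3 in DMSO libraries. Of 4 endothelial markers VWF, CDH5 and KDR were at 0 throughout, and the list summed to 0 in foretinib and at most 53.2 in cabozantinib and 87.4 in DMSO libraries. Of 3 red cell markers HBA1 and HBB were at 0 throughout, and the list reached 141 in cabozantinib and 0 in the other groups. Fibroblast markers, of which COL3A1 and DCN were at 0, summed to 869 to 1194 in foretinib, 767 to 1049 in cabozantinib and 453 to 1345 in DMSO libraries.

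The replication genes as a whole stood at a similar level in the 3 groups. Their summed level was 160342, 172141 and 154659 in the foretinib libraries, 156934, 140770 and 145985 in the cabozantinib libraries and 165786, 147492 and 147226 in the DMSO libraries. The 3 ranges overlapped. The sum averaged 162381 ± 8918 in foretinib, 147896 ± 8250 in cabozantinib and 153501 ± 10639 in DMSO, so that foretinib stood at 1.06 times DMSO and 1.10 times cabozantinib, and cabozantinib at 0.963 times DMSO. The 30 genes took 0.571% ± 0.0229 of all reads in foretinib, 0.538% ± 0.0345 in cabozantinib and 0.562% ± 0.0368 in DMSO libraries. In bulk RNA, fewer cells in S phase and less RNA per cell cannot be told apart.

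All 30 genes passed the filter, which asked for normalised counts of at least 10 in 3 libraries. With limma on log2(value + 1), fitted over all 9 libraries and 12642 genes, no gene of the 30 changed at a Benjamini-Hochberg adjusted p under 0.05 in any comparison. Over all tested genes the same test called 0% in foretinib against DMSO, 0% in cabozantinib against DMSO and 0% in foretinib against cabozantinib. At an unadjusted p under 0.05, foretinib against DMSO had 0 of the 30 higher (2.17% of all tested genes) and 1 lower, POLA1 (6.90% of all). Cabozantinib against DMSO had 0 higher (0.878% of all) and 0 lower (0.435% of all). Foretinib against cabozantinib had 1 higher, PCNA (1.83% of all), and 1 lower, POLA1 (8.08% of all). These counts are near the shares of all tested genes.

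A second count takes genes whose 3 libraries in 1 group all lie above, or all below, the 3 of the other. In foretinib against DMSO, MCM5 and RFC4 lay above (3.99% of all tested genes did) and POLA1 below (7.69% of all). In cabozantinib against DMSO, MCM10 lay above (5.18% of all) and none below (4.71% of all). In foretinib against cabozantinib, PCNA and RRM1 lay above (4.49% of all) and POLA1 below (9.70% of all). None of these counts exceeds 2 of 30 genes.

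The other tools run on recovered whole reads differed for POLA1. The quasi-likelihood test of edgeR called 0 of the 30 genes, and 0 of all genes, in each comparison. DESeq2 called POLA1 lower in foretinib against DMSO, where it called 533 of 12073 genes lower (4.41%), and in foretinib against cabozantinib, where it called 532 lower (4.41%). It called 0 of the 30 higher in either comparison and 0 in cabozantinib against DMSO.

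**Figure D1:**
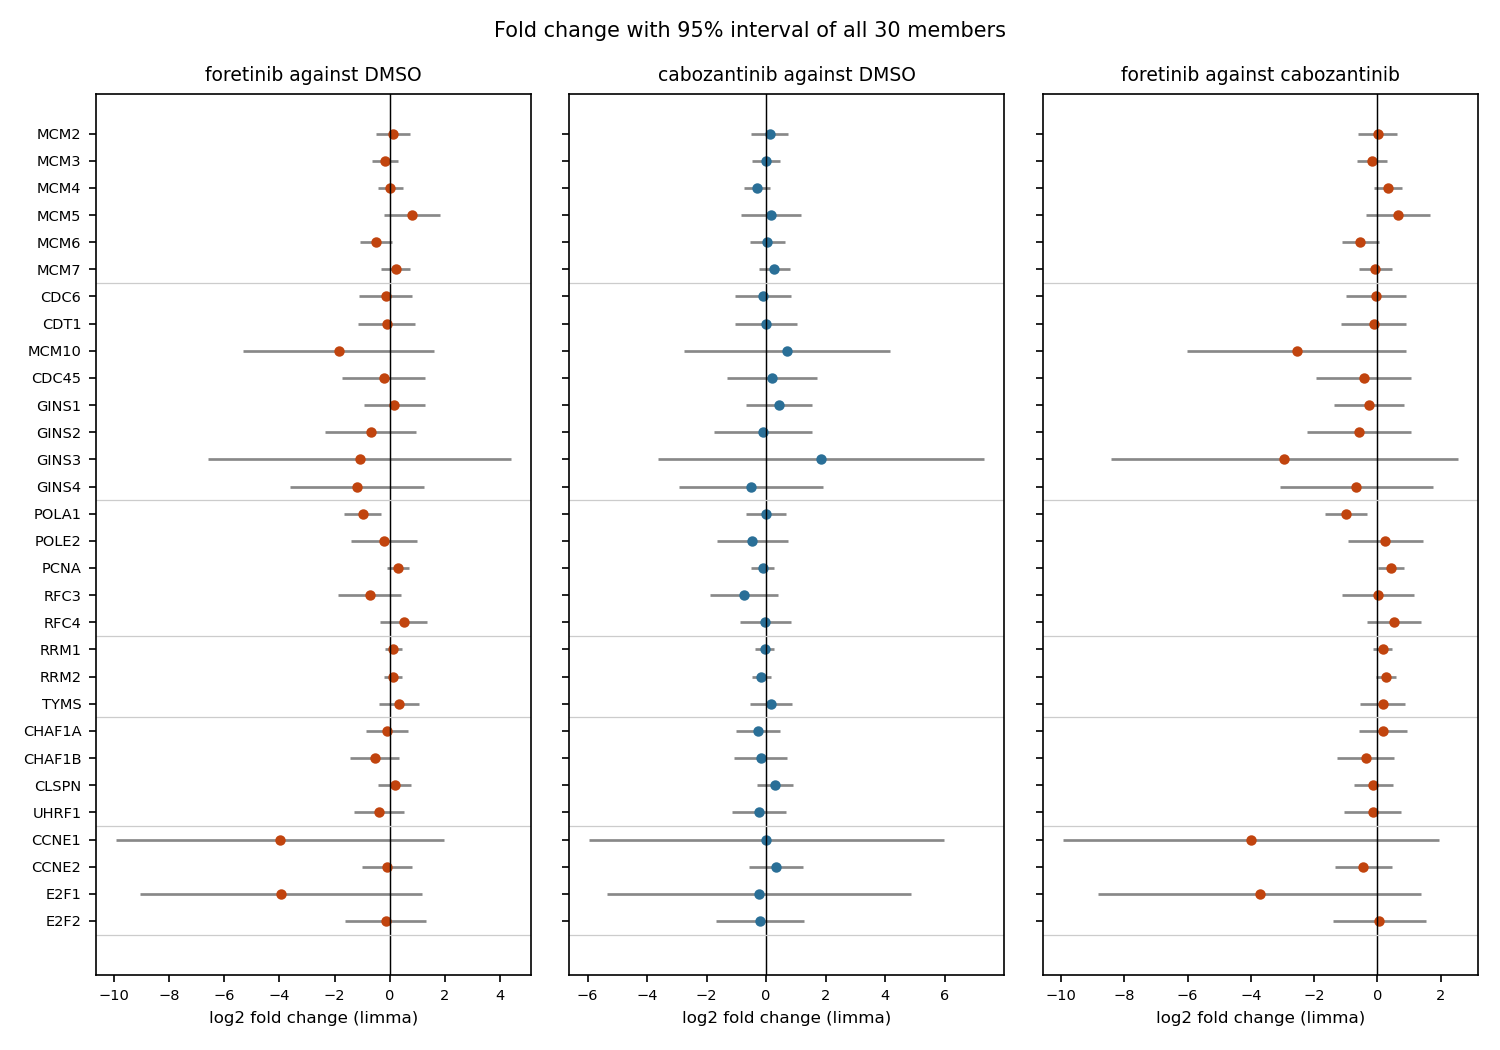
Log2 fold change (x axis, from limma on log2(value + 1)) of each of the 30 genes, with its 95% interval as a line, in 3 comparisons whose axes have different ranges; faint lines separate the 6 role classes. The POLA1 interval lies below 0 in both comparisons with foretinib, the PCNA interval lies just above 0 in foretinib against cabozantinib, and the lines of MCM10, GINS3, GINS4, CCNE1 and E2F1 are the longest.

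The median log2 fold change of the 30 genes was -0.14 in foretinib against DMSO, with 11 above 0 and 19 below, beside -0.34 over all 12642 tested genes. It was -0.01 in cabozantinib against DMSO, with 14 above 0 and 16 below, beside 0.04 over all genes, and -0.12 in foretinib against cabozantinib, with 12 above 0 and 18 below, beside -0.44 over all genes. After quantile normalisation, which gives every library the same distribution, the median was -0.20 for the 30 genes and -0.04 for all genes in foretinib against DMSO. It was -0.03 for the 30 genes and 0.01 for all genes in cabozantinib against DMSO, and -0.17 for the 30 genes and -0.05 for all genes in foretinib against cabozantinib. TMM scaling, which sets 1 new factor per library, gave -0.17 for the 30 genes and -0.37 for all genes in foretinib against DMSO. With only genes of a mean of 500 or more, 27 members had a median of -0.11 and all genes -0.10 in that comparison. In foretinib against cabozantinib that filter gave -0.06 for the members and -0.11 for all genes. Whether the members lie above or below all genes in the foretinib comparisons thus depends on the normalisation, and against DMSO also on the filter. The comparisons share libraries, so their values are given side by side and not as repeats of each other.

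How far a change can be bounded differed widely among the 30 genes. The 95% interval lay within 1 log2 unit of 0 on both sides for 9 genes in foretinib against DMSO, for 12 in cabozantinib against DMSO and for 11 in foretinib against cabozantinib. For MCM10, GINS3, GINS4, CCNE1 and E2F1 it was wider than 4 log2 units in every comparison. The model takes 1 spread per gene from all 9 libraries. A wide spread among the foretinib libraries therefore also widens the interval of cabozantinib against DMSO. In that comparison the width does not describe the cabozantinib and DMSO libraries alone.

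The MCM helicase, a ring of MCM2 to MCM7 that unwinds DNA ahead of the fork, summed to 43055, 46659 and 43840 in foretinib, 49157, 41281 and 39898 in cabozantinib and 49774, 41037 and 43212 in DMSO libraries. The groups overlapped, and the foretinib mean was 0.996 times that of DMSO and 1.02 times that of cabozantinib, while the cabozantinib mean was 0.972 times that of DMSO. MCM4, the subunit with the most reads, stood at 18581, 22354 and 14734 in foretinib, 18799, 13412 and 12265 in cabozantinib and 21498, 16253 and 16556 in DMSO libraries. Each group spread widely over the same range.

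MCM5 and MCM6 leaned in opposite directions under foretinib, although the 6 proteins form a single ring. MCM5 was at 2468, 2370 and 1431 in foretinib, 1682, 1637 and 766 in cabozantinib and 1344, 986 and 1152 in DMSO libraries. All foretinib libraries lay above all DMSO libraries, foretinib 4 by a small margin, with means of 2090 ± 572 for foretinib and 1161 ± 179 for DMSO and a ratio of 1.80. For MCM5 the log2 fold change was 0.82 ± 0.47 (SE; 95% interval -0.19 to 1.83, limma adjusted p = 0.539), so the difference did not pass the test. MCM6 was at 5362, 4250 and 9871 in foretinib, 9182, 8924 and 8360 in cabozantinib and 7643, 8377 and 9771 in DMSO libraries. Foretinib 1 and 2 were below every other library, while foretinib 4 was above them all. For MCM6 the log2 fold change was -0.49 in foretinib against DMSO (95% interval -1.07 to 0.09, limma adjusted p = 0.531) and -0.54 in foretinib against cabozantinib (95% interval -1.11 to 0.04, limma adjusted p = 0.514). With 1 library left out it was -0.84 to -0.23 against DMSO and -0.88 to -0.28 against cabozantinib, both ends set by foretinib 4 and foretinib 2.

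MCM7 was at 5616, 7597 and 7088 in foretinib, 8607, 7434 and 5360 in cabozantinib and 7148, 4866 and 5524 in DMSO libraries, with overlap between all groups. Its log2 fold change in cabozantinib against DMSO was 0.28 (95% interval -0.24 to 0.80). MCM2 averaged 3843 ± 1300 in foretinib, 3688 ± 318 in cabozantinib and 3382 ± 140 in DMSO. MCM3 averaged 6767 ± 1115 in foretinib, 7615 ± 1506 in cabozantinib and 7586 ± 891 in DMSO. Both overlapped between all 3 groups.

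**Figure D2:**
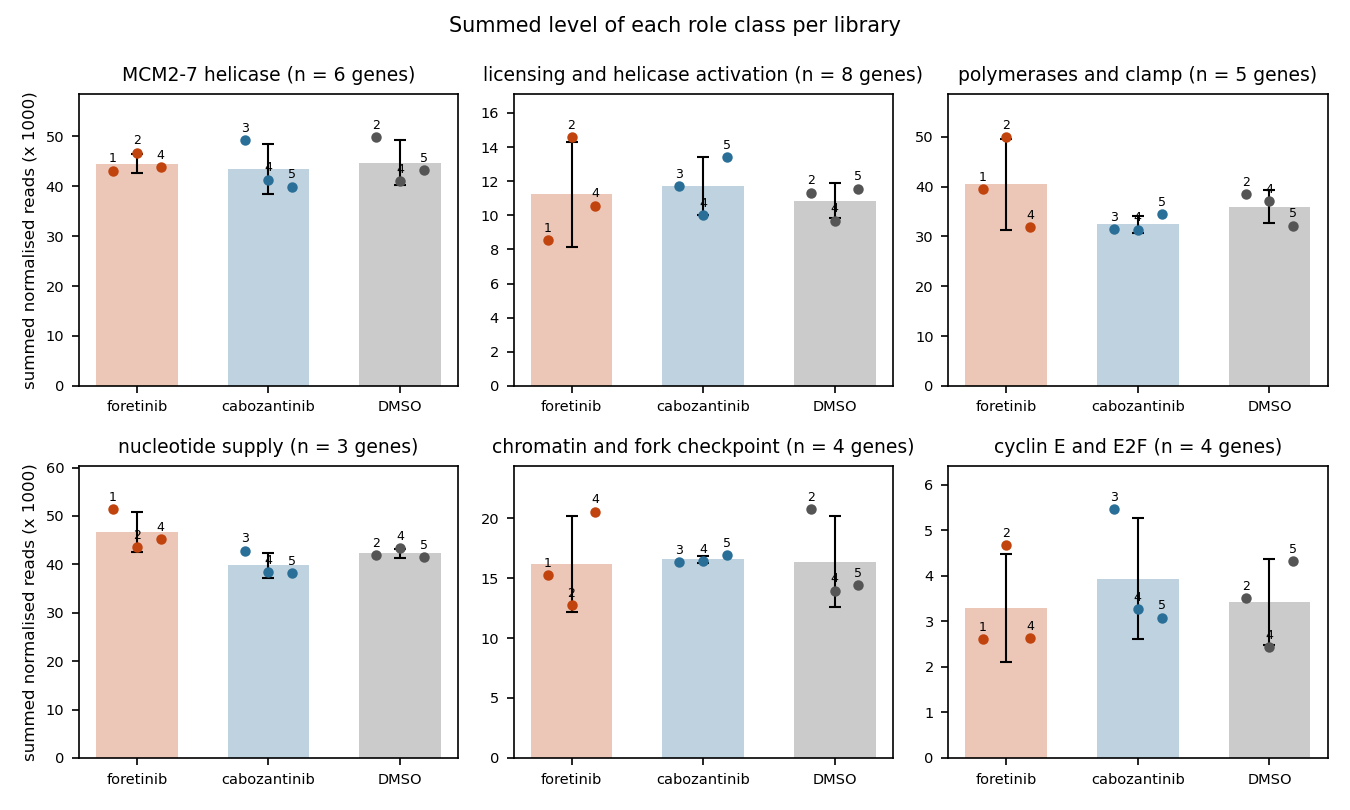
Summed normalised reads (y axes, divided by 1000, each from 0) of the 6 role classes in each library; bars are means and error bars the SD of 3 libraries, and points carry the replicate numbers of the titles. In the deposited values nucleotide supply is the class in which all 3 foretinib libraries lie above the cabozantinib and DMSO libraries. The margin over DMSO is small and depends on the scaling. The other 5 classes overlap between foretinib and DMSO.

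Among the licensing and activation factors, CDC6 and CDT1 load the helicase, MCM10 helps to start the fork, and CDC45 and GINS1 to GINS4 complete the active helicase. Of these 8 genes, 1 had a log2 fold change above 0 in foretinib against DMSO, 5 in cabozantinib against DMSO and 0 in foretinib against cabozantinib. Over all 12642 tested genes, 4573, 6735 and 4255 were above 0 in the same order. The foretinib mean count lay above that of DMSO for CDT1, MCM10, CDC45, GINS1 and GINS3, and below it for CDC6, GINS2 and GINS4. Under alternatives that kept every library, the sign in foretinib against DMSO changed for CDC6, CDT1, MCM10, CDC45, GINS1 and GINS3. In foretinib against cabozantinib it changed for CDC6, CDT1, CDC45, GINS3 and GINS4. The 8 genes summed to 8528, 14571 and 10568 in foretinib, 11712, 9995 and 13392 in cabozantinib and 11326, 9678 and 11554 in DMSO libraries. Foretinib 1 was lowest and foretinib 2 highest of all 9 libraries, and the foretinib mean was 1.03 times that of DMSO and 0.959 times that of cabozantinib.

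CDT1 shows how far replicates of 1 group could part. It was at 2808, 4807 and 959 in foretinib, 2271, 2139 and 3412 in cabozantinib and 2589, 2474 and 2547 in DMSO libraries. The coefficient of variation (CV, the SD as a percentage of the mean) was 67.3% in foretinib, 26.9% in cabozantinib and 2.28% in DMSO. The log2 fold change of CDT1 in foretinib against cabozantinib was -0.12 (95% interval -1.16 to 0.92), and its sign was the other with edgeR (0.10) and DESeq2 (0.13).

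MCM10 was at 1321, 2271 and 5.23 in foretinib, 1831, 1426 and 1413 in cabozantinib and 873, 848 and 1166 in DMSO libraries. All cabozantinib libraries lay above all DMSO libraries, at a mean of 1556 ± 238 in cabozantinib and 962 ± 177 in DMSO, a ratio of 1.62. The log2 fold change of MCM10 in cabozantinib against DMSO was 0.70 (95% interval -2.76 to 4.16). With 1 library of these 2 groups left out it was 0.58 to 0.84. The interval uses the spread of all 9 libraries, foretinib 4 among them. In foretinib against cabozantinib it was -2.54 (95% interval -6.00 to 0.92), and without foretinib 4, the library near 0, it was 0.16.

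GINS3 was near 0 in some libraries of 2 groups: it was at 3.29, 22.1 and 1427 in foretinib, 428, 246 and 601 in cabozantinib and 3.33, 556 and 567 in DMSO libraries. CDC45 was at 398, 3057 and 3883 in foretinib, 2245, 1752 and 2897 in cabozantinib and 2904, 1176 and 2186 in DMSO libraries, so the lowest and the highest value were both from foretinib. GINS4 had its lowest value in foretinib, at 57.5 in library 4, against 261 or more in every cabozantinib and DMSO library. Among CDC6, GINS1 and GINS2 the groups overlapped in every comparison.

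POLA1, the catalytic subunit of DNA polymerase alpha, which with primase starts each new strand, was lower with foretinib by about the same amount against both other groups. POLA1 was at 3701, 1921 and 2130 in foretinib, 4692, 4346 and 5746 in cabozantinib and 6171, 5056 and 3725 in DMSO libraries. Every foretinib library lay below every other library, but foretinib 1 and DMSO 5 nearly touched. POLA1 averaged 2584 ± 973 in foretinib, 4928 ± 729 in cabozantinib and 4984 ± 1225 in DMSO, so that foretinib stood at 0.518 times DMSO and 0.524 times cabozantinib, and cabozantinib at 0.989 times DMSO.

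The log2 fold change of POLA1 was -0.98 ± 0.31 in foretinib against DMSO (SE; 95% interval -1.65 to -0.31, limma unadjusted p = 0.00709, adjusted p = 0.406). In foretinib against cabozantinib it was -0.98 ± 0.31 (SE; 95% interval -1.65 to -0.32, limma unadjusted p = 0.00692, adjusted p = 0.378). In cabozantinib against DMSO it was 0.00 (95% interval -0.66 to 0.67). DESeq2, with a log2 fold change of -0.95 against DMSO and -0.94 against cabozantinib, gave an adjusted p of 0.0362 and 0.0429. Leaving out each library in turn gave -1.27 to -0.80 in both comparisons, with limma adjusted p of 0.107 to 0.698 against DMSO and 0.120 to 0.738 against cabozantinib. Under the other alternatives it was -1.34 to -0.95 against DMSO and -1.46 to -0.94 against cabozantinib. The direction therefore held in each of these fits, while the call rests on the tool.

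PCNA, the sliding clamp that holds polymerases on DNA, was at 26886, 43668 and 25173 in foretinib, 21847, 22979 and 23906 in cabozantinib and 25681, 25451 and 23464 in DMSO libraries. Foretinib 2 was far above all other libraries, and all foretinib libraries lay above all cabozantinib libraries. PCNA averaged 31909 ± 10219 in foretinib, 22911 ± 1031 in cabozantinib and 24865 ± 1219 in DMSO. Against cabozantinib, foretinib gave PCNA a log2 fold change of 0.43 ± 0.18 (SE; 95% interval 0.04 to 0.83, limma adjusted p = 0.480), and without foretinib 2 it was 0.18. In foretinib against DMSO it was 0.32 (95% interval -0.08 to 0.71), and without foretinib 2 it was 0.066.

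RFC3 and RFC4 are subunits of the clamp loader, which places PCNA on DNA. RFC4 was at 2746, 2155 and 2855 in foretinib, 1934, 1070 and 2680 in cabozantinib and 1519, 1941 and 1971 in DMSO libraries. All foretinib libraries lay above all DMSO libraries, and the log2 fold change was 0.51 (95% interval -0.34 to 1.37). RFC3 was at 4332, 1193 and 1041 in foretinib, 2108, 2190 and 1111 in cabozantinib and 3968, 2971 and 2067 in DMSO libraries. The groups overlapped, and the log2 fold change of RFC3 in cabozantinib against DMSO was -0.75 (95% interval -1.89 to 0.39). POLE2, a subunit of polymerase epsilon, overlapped between all groups, at 673 to 1856 in foretinib, 793 to 1034 in cabozantinib and 975 to 1668 in DMSO libraries.

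**Figure D3:**
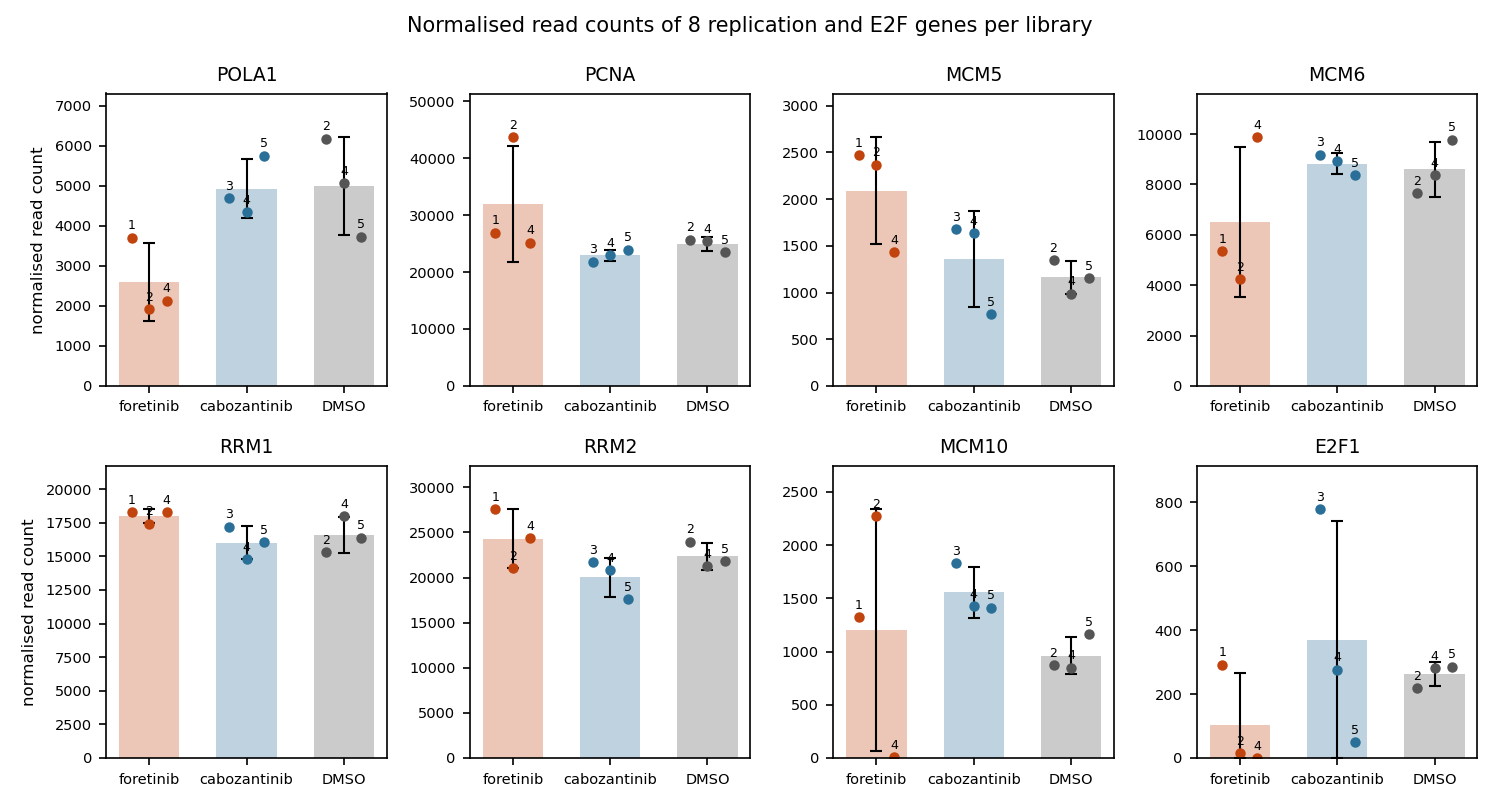
Normalised read count (y axes, each from 0) of 8 of the genes in each library; bars are means, error bars the SD of 3 libraries (not drawn below 0), and points carry the replicate numbers of the titles. All foretinib points of POLA1 lie below those of the other groups, foretinib 2 sets the mean of PCNA apart, foretinib 4 lies opposite to foretinib 1 and 2 in MCM6, and MCM10 and E2F1 have foretinib libraries at or near 0.

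Of the 3 genes of nucleotide supply, RRM1 and RRM2 are the subunits of ribonucleotide reductase, which makes deoxyribonucleotides, and TYMS makes thymidylate. Their summed level was 51383, 43597 and 45220 in foretinib, 42807, 38444 and 38238 in cabozantinib and 41944, 43322 and 41510 in DMSO libraries. In the deposited values all foretinib libraries lay above all others, foretinib 2 by a small margin over DMSO 4. That margin depends on the scaling. TMM, which rescales every gene of a library alike, took the members' summed level from 172141 to 171314 in foretinib 2. In DMSO 4 it took that level from 147492 to 149240. Rescaled in this way, the class sum of foretinib 2 falls below that of DMSO 4. How often sums of other gene lists separate was not tested. The ratio of the class means was 1.11 for foretinib against DMSO and 1.17 for foretinib against cabozantinib. For cabozantinib against DMSO it was 0.943, with overlap. All 3 genes had a log2 fold change above 0 in both foretinib comparisons, and none of them passed the test. The sign changed under some alternative for RRM2 against DMSO and for TYMS against cabozantinib.

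RRM2 was at 27554, 21048 and 24340 in foretinib, 21690, 20791 and 17619 in cabozantinib and 23971, 21246 and 21780 in DMSO libraries. It averaged 24314 ± 3253 in foretinib, 20033 ± 2139 in cabozantinib and 22332 ± 1444 in DMSO, and foretinib 2 lay among the other groups. The log2 fold change of RRM2 in foretinib against cabozantinib was 0.28 ± 0.15 (SE; 95% interval -0.05 to 0.60, limma adjusted p = 0.525). RRM1 was at 18301, 17429 and 18279 in foretinib, 17214, 14768 and 16073 in cabozantinib and 15306, 17968 and 16393 in DMSO libraries. Foretinib lay above cabozantinib without overlap, by a log2 fold change of 0.17 (95% interval -0.14 to 0.48). TYMS averaged 4416 ± 1585 in foretinib, 3778 ± 838 in cabozantinib and 3371 ± 721 in DMSO, with overlap.

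The chromatin and checkpoint genes summed to 15255, 12726 and 20526 in foretinib, 16336, 16411 and 16902 in cabozantinib and 20738, 13937 and 14430 in DMSO libraries. The foretinib mean was 0.988 times that of DMSO and 0.977 times that of cabozantinib, and the cabozantinib mean was 1.01 times that of DMSO. CLSPN codes for claspin, which carries the checkpoint signal from stalled forks, and was at 8633, 5828 and 13364 in foretinib, 8905, 8654 and 11260 in cabozantinib and 10218, 6386 and 7133 in DMSO libraries. The lowest and the highest value were both from foretinib, and the log2 fold change of CLSPN in cabozantinib against DMSO was 0.30 (95% interval -0.31 to 0.91).

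CHAF1A and CHAF1B code for subunits of chromatin assembly factor CAF-1, which puts histones on new DNA. CHAF1B was at 1023, 2092 and 1385 in foretinib, 1860, 1904 and 1799 in cabozantinib and 1956, 1561 and 3035 in DMSO libraries. Foretinib 1 and 4 were below all other libraries, and the log2 fold change of CHAF1B in foretinib against DMSO was -0.55 (95% interval -1.44 to 0.34). CHAF1A and UHRF1, which helps to copy DNA methylation at the fork, overlapped between all groups.

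The E-type cyclins, which with CDK2 drive entry into S phase, and the activator E2Fs were the class with the lowest summed level. Their summed level was 2601, 4670 and 2634 in foretinib, 5459, 3259 and 3078 in cabozantinib and 3501, 2432 and 4318 in DMSO libraries, with overlap between all groups. E2F1 was at 292, 15.4 and 0 in foretinib, 779, 276 and 50.1 in cabozantinib and 219, 281 and 286 in DMSO libraries. Foretinib 1 was higher than every DMSO library, while foretinib 2 and 4 were below them. In foretinib against DMSO the log2 fold change of E2F1 was -3.95 (95% interval -9.07 to 1.16, limma adjusted p = 0.548), and with edgeR, fitted on whole reads, it was -1.39.

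CCNE1 was at 0, 0.96 and 726 in foretinib, 332, 26.9 and 619 in cabozantinib and 112, 84.4 and 580 in DMSO libraries. The highest value and the 2 lowest were all from foretinib. CCNE2 was more even, at 1131, 1705 and 1413 in foretinib, 2529, 1437 and 1871 in cabozantinib and 1678, 1137 and 1798 in DMSO libraries, and its log2 fold change in foretinib against cabozantinib was -0.44 (95% interval -1.34 to 0.46). E2F2 overlapped between all groups, at 496 to 2949 in foretinib, 538 to 1820 in cabozantinib and 929 to 1653 in DMSO libraries.

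Replicates of these genes were more uneven with foretinib than in the other groups. The median CV of the 30 genes was 36.9% in foretinib, 23.3% in cabozantinib and 23.7% in DMSO. It was above 50% for 10 genes in foretinib, 4 in cabozantinib and 2 in DMSO. Foretinib also had the highest median CV of all genes at each level: at a mean of 1000 to 3000 normalised reads the median CV of 13 members was 40.9% in foretinib, 26.9% in cabozantinib and 28.0% in DMSO, beside 49.8%, 24.5% and 28.4% over 3474 genes. At 3000 to 10000 the median of 8 members was 34.9% in foretinib, 17.4% in cabozantinib and 20.7% in DMSO, beside 30.7%, 15.0% and 18.0% over 1638 genes. At 100 to 1000 the median of 5 members was 160% in foretinib, 56.9% in cabozantinib and 48.6% in DMSO, beside 103%, 49.99% and 59.8% over 5955 genes. Above 10000 the median of 4 members was 17.0% in foretinib, 9.16% in cabozantinib and 7.28% in DMSO, beside 16.7%, 10.0% and 12.3% over 376 genes. Among the members cabozantinib and DMSO had no fixed order, while over all genes the cabozantinib median was below that of DMSO at each level. These are descriptions, and the difference in spread was not tested. Fewer genes were detected in the same foretinib libraries, and the part of that in these results was not tested.

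**Figure D4:**
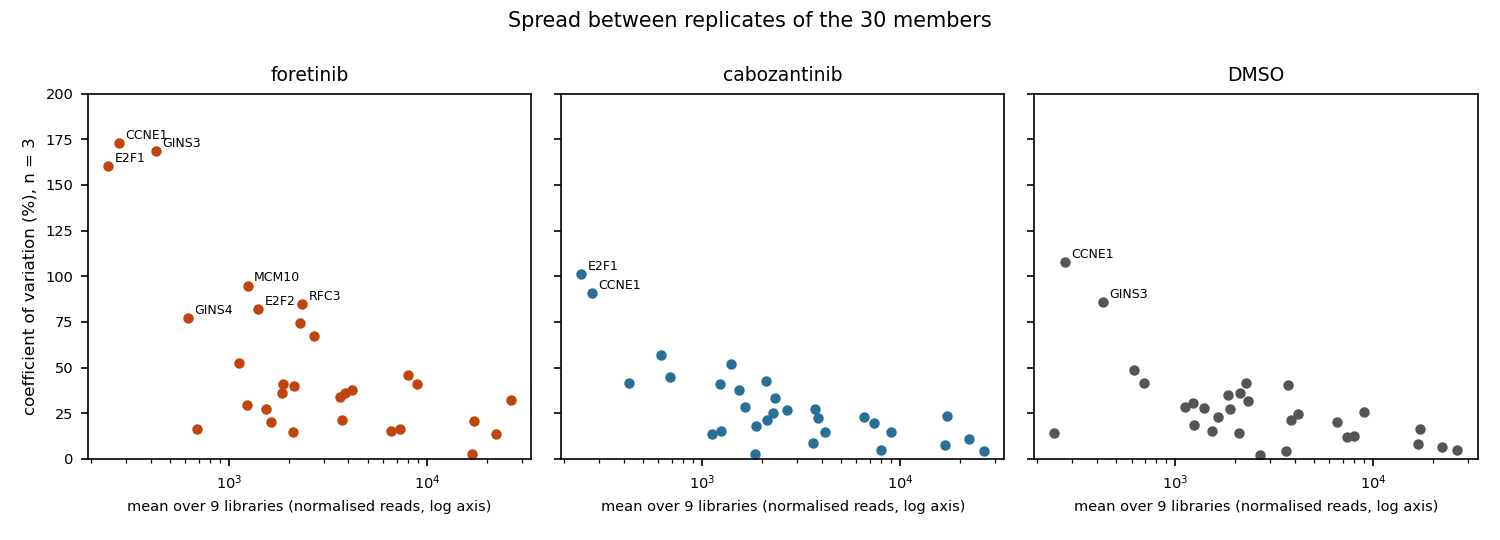
Coefficient of variation over 3 libraries (y axis, in percent) of the 30 genes against their mean over 9 libraries (x axis, normalised reads, log scale), for foretinib, cabozantinib and DMSO; the genes with the widest spread are named. CCNE1, GINS3 and E2F1 lie highest in foretinib, and the median of the 30 genes is 36.9% in foretinib, 23.3% in cabozantinib and 23.7% in DMSO.

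Levels of different genes can be compared only per length, here as normalised reads per kilobase of exons in coding transcripts of GENCODE v29, in DMSO. PCNA was highest at 16904 ± 828 per kilobase, and RRM2 (5787 ± 374), RRM1 (4929 ± 398) and MCM4 (4167 ± 678) came next. RRM1 and MCM4 did not differ beyond their spread. MCM3 (2361 ± 277) and MCM6 (2301 ± 289) were level with each other, while MCM5 stood at 329 ± 50.7, so RNA of subunits of 1 ring differed widely in amount. POLA1 stood at 908 ± 223 per kilobase, and CCNE1 (125 ± 134) and E2F1 (105 ± 15.0) were lowest. Exons of MCM2, MCM7, RFC4, TYMS and CCNE2 overlap genes of the opposite strand that have values in these data (TPRA1, AP4M1, EIF4A2, ENOSF1 and INTS8). Those of RRM1, CLSPN, CHAF1A, GINS2, GINS3 and GINS4 overlap genes of the opposite strand without values here. RRM2 overlaps such a gene on its own strand. Without a stated strand setting reads of neighbours on the opposite strand cannot be told apart.

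A wider list of 67 other genes of replication and the E2F network, taken by role, gave a similar picture. Of these, 66 were found in the table and tested, and 0 changed in limma in any comparison. Their median log2 fold change was -0.18 in foretinib against DMSO (24 above 0, 42 below), 0.03 in cabozantinib against DMSO (37 above, 29 below) and -0.09 in foretinib against cabozantinib (25 above, 41 below). Over all tested genes the medians were -0.34 (4573 above, 8069 below), 0.04 (6735 above, 5907 below) and -0.44 (4255 above, 8387 below) in the same order. DESeq2 called 2 of the 66 lower in foretinib against DMSO, where it called 4.41% of all genes lower. In foretinib against cabozantinib it called 1 of the 66 lower, and 4.41% of all genes. It called 0 of the 66 in cabozantinib against DMSO.

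POLD2, a subunit of polymerase delta, was at 2113, 1102 and 2871 in foretinib, 2840, 3898 and 4127 in cabozantinib and 5124, 4068 and 3892 in DMSO libraries. All foretinib libraries lay below all DMSO libraries, and the log2 fold change was -1.20 against DMSO (95% interval -1.97 to -0.43, limma adjusted p = 0.370) and -0.92 against cabozantinib (95% interval -1.69 to -0.15, limma adjusted p = 0.437). DESeq2 called POLD2 lower against DMSO, with an adjusted p of 0.0278, but not against cabozantinib. Without foretinib 2 the log2 fold change against cabozantinib was -0.54. E2F5, a repressor of the E2F family, was at 0.822, 0 and 0 in foretinib, 9.93, 169 and 109 in cabozantinib and 597, 94.4 and 415 in DMSO libraries. The foretinib value above 0 is a single read, and no fold is given. E2F5 is the other call of DESeq2 against DMSO (adjusted p of 0.000179) and its call against cabozantinib (adjusted p of 0.00646).

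DTL, which marks CDT1 for destruction, was at 266, 280 and 1784 in foretinib, 1343, 1802 and 2641 in cabozantinib and 1941, 1412 and 1582 in DMSO libraries. Foretinib 1 and 2 were below every other library, and the log2 fold change of DTL in foretinib against cabozantinib was -1.86 (95% interval -3.34 to -0.37, limma adjusted p = 0.423). GMNN codes for geminin, which binds CDT1 and blocks loading of the helicase, and was at 3334, 1812 and 3523 in foretinib, 1912, 2148 and 681 in cabozantinib and 2364, 3080 and 2243 in DMSO libraries. All cabozantinib libraries lay below all DMSO libraries, with a log2 fold change of -0.85 (95% interval -1.84 to 0.14). In foretinib against cabozantinib the log2 fold change of GMNN was 0.98 (95% interval -0.02 to 1.97, limma adjusted p = 0.505), with overlap. Without cabozantinib 5 it was -0.32 in cabozantinib against DMSO and 0.45 in foretinib against cabozantinib.

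ATAD2, a chromatin protein and known E2F target, was at 14866, 16475 and 17145 in foretinib, 14972, 12006 and 12442 in cabozantinib and 13666, 11095 and 11252 in DMSO libraries. All foretinib libraries lay above all DMSO libraries, with a log2 fold change of 0.43 (95% interval 0.08 to 0.79, limma adjusted p = 0.497). TIMELESS, which protects the fork, was at 7304, 5667 and 7814 in foretinib, 4605, 5683 and 5770 in cabozantinib and 4979, 5176 and 4894 in DMSO libraries, also without overlap between foretinib and DMSO (log2 fold change 0.45, 95% interval -0.01 to 0.92). TOPBP1, needed to fire origins and to start the checkpoint, was at 10006, 9416 and 9837 in foretinib, 7844, 7627 and 7908 in cabozantinib and 8765, 8681 and 7655 in DMSO libraries. Foretinib lay above both other groups without overlap, by a log2 fold change of 0.32 against cabozantinib (95% interval -0.04 to 0.69, limma adjusted p = 0.519). None of these values of ATAD2, TIMELESS and TOPBP1 passed the test. In cabozantinib against DMSO, WDHD1 had a log2 fold change of 0.67 and RECQL4 of -0.41, and neither passed the test.

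Between the compounds, then, no gene of the 30 was called different by limma or edgeR at 1 µM and 4 h, and DESeq2 called POLA1 alone. For the genes with the narrowest intervals the size of any difference is limited: RRM1 lay within -0.14 to 0.48 and RRM2 within -0.05 to 0.60 on the log2 scale in foretinib against cabozantinib. For POLA1 the interval ran from -1.65 to -0.32. For the genes with libraries near 0 the intervals were wide and reached further below 0 than above it, as for MCM10 (-6.00 to 0.92) and CCNE1 (-9.95 to 1.96).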

How the data were processed

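RNA was cleaned on RNeasy columns with a DNase step and turned into libraries with NuGEN's Encore Complete kit and KAPA amplification, per the labels' protocols. The authors deposited 1 signal value per gene and library, a count of reads scaled by a size factor. TopHat2 2.0.13, Cufflinks 2.2.1, HTSeq, DESeq2 and the build hs37d5 are named in the submitters' processing notes. The roles of these tools, the annotation, the strand setting, filters and what the columns' word combined means were not given in the sources used here. Every value in the deposited columns was a whole multiple of 1 step, within 1e-06 of a read, so whole reads were recovered for edgeR 4.0.16 and DESeq2 1.42.0. The step was nearest 1 in 3 columns, at 1.005 in DMSO 4, 0.993 in cabozantinib 3 and 0.997 in cabozantinib 4. Because the values were deposited as normalised counts, a log-scale test was the main one and those tools served as alternatives. Reads amplified from the same molecule could not be told apart.

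The main test was limma 3.58.1 (R 4.3.3), with empirical Bayes variances that follow a mean-variance trend, on log2(value + 1). It covered the 12642 genes that reached 10 in 3 or more libraries. The pseudocount of 1 shifts fold changes of genes near 0 away from ratios of means. All 9 libraries were in 1 model without covariates, with Benjamini-Hochberg adjustment over all tested genes in each comparison, a threshold of 0.05 and two-sided p-values. The procedure was tested on simulated counts with the same spread in every group and large changes in genes with many reads. That setting lacks the wider spread and the larger share of genes at 0 of the foretinib libraries. It therefore does not show how the test behaves on these data. DESeq2 shares leave out genes to which it gave no adjusted p.

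The 30 members and the wider list were chosen with earlier results of these data known, so no list received a test of its own. The rule for values in every library took, in each role class, the member with the highest mean and the member with the smallest p, and the 3 members with the smallest p in each comparison. From the wider list it took the 2 genes with the smallest p per comparison and direction. A gene that this took is not reported here. CDC45, GINS3, RFC4, RRM1 and CCNE1 were added after their values were seen. Alternatives were other pseudocounts, filters, scalings and tools, a fit of the 6 libraries compared, a replicate block and leaving out each library. Promoters are from RefSeq (GRCh38.p14), a different build from that of the reads.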

Additional observations from a re-analysis of the deposited data

How the results depend on the processing

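Genes called over the whole table numbered 0 in limma under every pseudocount, filter and scaling tried, except 1 in foretinib against DMSO after quantile normalisation, and 0 in edgeR. DESeq2 called 650 in foretinib against DMSO, 47 in cabozantinib against DMSO and 618 in foretinib against cabozantinib. Among them were 1 member (POLA1) and 2 genes of the wider list in foretinib against DMSO, and 1 member (POLA1) and 1 gene of the wider list in foretinib against cabozantinib. The cause was not tested.

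Medians of log2 fold changes were small enough to change sign. For the members, that of foretinib against DMSO was 0.049 with edgeR and 0.078 with DESeq2, and -0.24 to 0.0020 with each library left out in turn. That of foretinib against cabozantinib was 0.0059 with edgeR and 0.042 with DESeq2, and -0.25 to 0.030 with a library left out. That of cabozantinib against DMSO was -0.07 to 0.06 with a library left out. For the wider list the median in foretinib against DMSO was -0.28 after quantile normalisation, -0.092 with edgeR and -0.060 with DESeq2, and -0.28 to -0.11 with a library left out. In cabozantinib against DMSO it was -0.033 to 0.039 with a library left out. In foretinib against cabozantinib it was -0.00070 with edgeR, 0.034 with DESeq2 and -0.17 to -0.067 with a library left out.

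Under some alternative other than leaving out 1 library, 11 of the 30 members changed the sign of their fold change in foretinib against DMSO. In cabozantinib against DMSO 9 did so, and in foretinib against cabozantinib 12. In foretinib against cabozantinib CDT1 had 0.097 with edgeR and 0.13 with DESeq2, and -0.64 to 0.53 with a library left out. MCM10 had -4.09 to 0.16 with a library left out there. POLA1 in cabozantinib against DMSO, near 0 in the main test, had -0.0053 with edgeR and -0.014 with DESeq2, and -0.19 to 0.17 with a library left out. Of 34 single-gene fold changes, 24 moved by over 1.5 times or changed sign when some 1 library was left out. The members' summed level ratio was 1.03 to 1.10 in foretinib against DMSO, 0.934 to 1.00 in cabozantinib against DMSO and 1.07 to 1.13 in foretinib against cabozantinib with each library left out. With TMM scaling or quantile normalisation it was 1.003 to 1.036 in foretinib against DMSO and 0.969 to 0.970 in cabozantinib against DMSO. In foretinib against cabozantinib those scalings gave 1.036 to 1.068.

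A replicate block, which fits a term per library number, called 0 members and gave a members' median of -0.10 in foretinib against DMSO, -0.12 in cabozantinib against DMSO and -0.03 in foretinib against cabozantinib, and a median of 0.022 for the wider list in foretinib against cabozantinib. Under it WDHD1 in cabozantinib against DMSO had -0.093 and RRM2 in foretinib against DMSO -0.020. Between same-number libraries of different groups the Pearson r, across genes, of deviations from the group mean was -0.0022 to 0.0288. Between libraries of different numbers it was -0.0244 to 0.0308. Whether the numbers pair the libraries was not tested. With 3 libraries a group and values near 0 in some foretinib libraries, changes of the genes with few reads could not be bounded.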
